A study of Arabidopsis thaliana with 3 samples.

Results

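The genes described here are the MYB, bHLH and bZIP transcription factors among the genes called between *dss1(I)* mutant and wild-type (WT) seedlings of Arabidopsis thaliana under hydrogen peroxide. They were taken as every gene of the authors' called list whose transcription factor label, the name of a protein domain, holds MYB, HLH or bZIP. This gave 41 of 2762 genes, of which 28 carried a MYB label, 11 an HLH label and 2 a bZIP label. The *dss1(I)* seedlings were the homozygous CRISPR/Cas9 line dss1(I)del25, which the study also calls a knockdown, set against WT seedlings of the Columbia-0 accession. Both were 14 days old and spent 3 days on agar with 10 mM H2O2 before whole seedlings were frozen, so that the treatment is shared by both genotypes. Each genotype was 1 poly-A RNA library built from material of 3 independent experiments, and the library of *dss1(V)* seedlings is not used here. Since a genotype is 1 library, no replicate check, test or p-value was possible, and every difference below is one between the 2 libraries.

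MYB proteins bind DNA through repeats of a helix-turn-helix fold, and in plants the large R2R3 group controls pigments, cell fate and stress responses. The bHLH proteins bind as dimers to E-boxes, among them the G-box, and act in growth, light and hormone responses. The bZIP proteins bind as dimers to sites with an ACGT core and are known for abscisic acid, light and unfolded-protein responses. In anthocyanin synthesis the families work together, since an R2R3 MYB, a bHLH and a WD-repeat protein form the complex that switches on the pigment genes.

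In *dss1(I)* seedlings the activators of anthocyanin synthesis MYB90, MYB75 and TT8 were lower. The repressor MYBL2 was higher and the repressor MYB7 lower, and the 12 pigment enzymes in the table were lower. The related stress MYB genes MYB44, MYB73 and MYB77 were lower in the authors' scaling. The log2 ratio of MYB44 was 0.00 under another scaling, taken over called genes only and given below. The growth-related bHLH genes BIM1 and HBI1 were higher. The endoplasmic reticulum stress factor BZIP60, the member with the highest FPKM in WT, was lower, and BZIP61 was higher.

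The reads behind these genes came from a *dss1(I)* library of 11033843 gene-assigned reads and a WT library of 9394592. Levels are given as reads, as the authors' scaled counts, which bring both libraries to a common size, or as FPKM, which also divides by gene length. The log2 ratio is that of the scaled counts, *dss1(I)* over WT, with 1 added to each. The interval beside it is the exact 95% interval of the ratio without the added 1 and covers counting error only, since these reads carry no molecular identifiers and may repeat a molecule. AtDSS1(I), which encodes a small proteasome subunit and BRCA2 partner, had 233 *dss1(I)* reads against 807 WT reads (log2 ratio -2.005, interval -2.23 to -1.80).

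All genes of the table had already been called by the authors, so the direction of a member is a description. Per the study's methods, the call asked for an absolute log2 fold change of at least 1 and an adjusted p-value cut. The threshold of 1 used below was thus met in advance by nearly every gene, and the counts at it describe direction only. A minimum scaled count of 10, in either library, was reached by 37 of 41 members and by 2620 of 2762 genes of the table. Of these 37, 12 had a log2 ratio of at least 1 (32.4%) beside 48.1% of the table, and 25 had a log2 ratio of at most -1 (67.6%) beside 51% of the table. At a log2 ratio of at least 2 there was 1 member (6.3% of the table), and at most -2 there were 5 (12.3% of the table). The median log2 ratio was -1.21 over the 37 members and -1.02 over the table. With each library scaled by the median ratio of the table's genes instead (median-ratio scaling), the members' log2 ratios moved up by a median of 1.00, by less where counts were low (0.44 to 1.02). The table holds called genes only, so its median ratio need not mark genes without a difference. Scaling by library totals shifted the log2 ratios by -0.0145. Of the same 37 members, 12 were then at 1 or above and 6 at -1 or below. With the minimum applied to the rescaled counts, which brings in MYB85 and drops ETC2 and BHLH14, these were 13 and 4.

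The families differed in their make-up. Of 25 MYB genes above the minimum, 6 were higher and 19 lower in *dss1(I)*, with a median log2 ratio of -1.28. Under median-ratio scaling 5 of these 25 were at -1 or below, and their median was -0.25. Of 10 bHLH genes, 5 were higher and 5 lower, with a median of -0.07 that lies between a higher and a lower group and stands for neither. Over the bHLH genes that reach a scaled count of 50 the median was 1.15, and over these 10 under median-ratio scaling it was 0.94. Of the bZIP genes, BZIP61 was higher and BZIP60 lower. Summed over all its members, the MYB family had a scaled count of 3193 in *dss1(I)* and 5002 in WT, and the bHLH family one of 2830 in *dss1(I)* and 1599 in WT. The 4 members under the minimum were MYB42, MYB85, AT5G06800 and BHLH28.

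**Figure D1:**
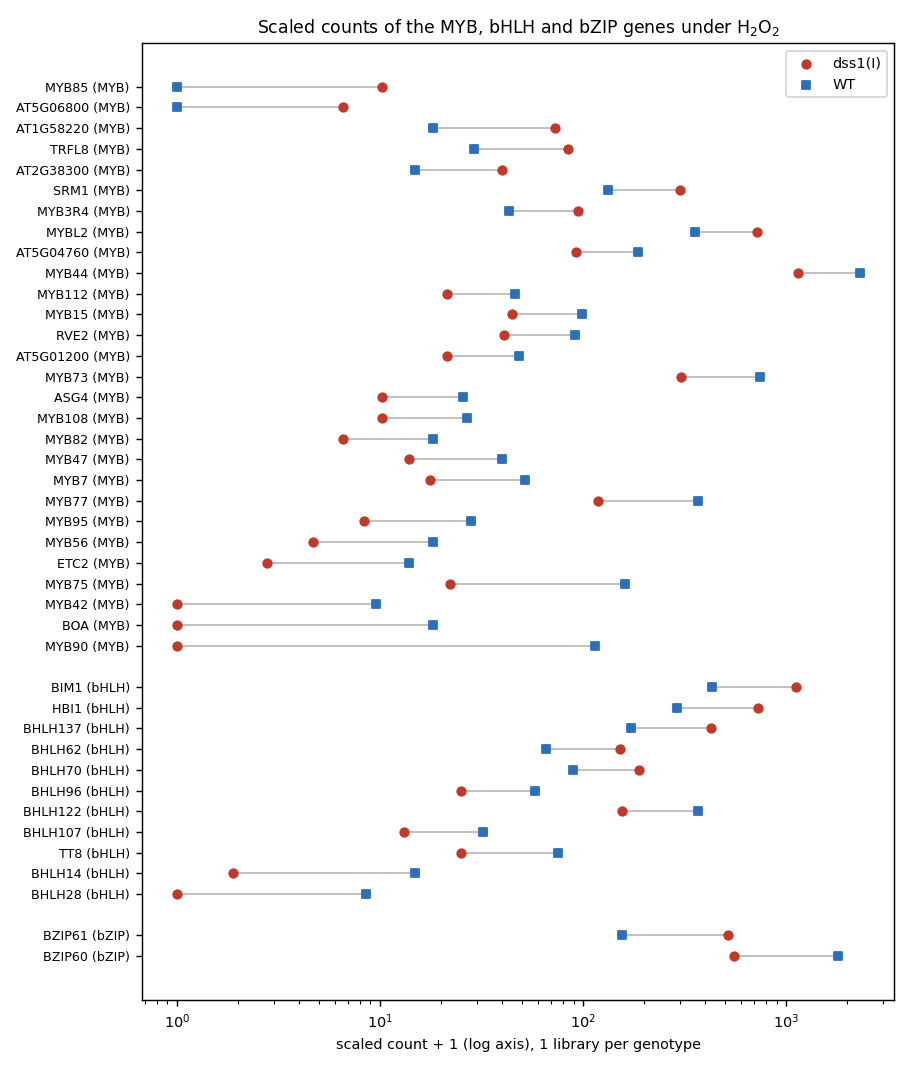
Scaled counts of the 41 members plus 1 on a log axis, with *dss1(I)* as circles and WT as squares, 1 library each, and a line joining the pair of each gene. In the authors' scaling 20 MYB, 6 bHLH and 1 bZIP genes had the *dss1(I)* point to the left of the WT point, among them MYB44 and AT5G04760, whose log2 ratios were 0.00 and 0.01 under median-ratio scaling.

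Gene length moved with direction, in the members as in the rest of the table. The median gene length was 2033.5 bp for the 14 members higher in *dss1(I)* and 1327 bp for the 27 lower members. Over the other genes of the table it was 2921 bp for those higher and 1178.5 bp for those lower. Among genes of 600 to 1200 bp, 0 of 7 members were higher in *dss1(I)*, beside 8.88% of other genes of the table. From 1200 to 1600 bp, 2 of 12 members were higher (16.7%), beside 22.6% of other genes. From 1600 to 2100 bp, 4 of 10 were higher (40%), beside 42.4%, and from 2100 to 4000 bp, 6 of 8 (75%), beside 81.3%. Members therefore lay near the other called genes in every length class, and the part of gene length in the direction of any one gene was not tested.

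**Figure D2:**
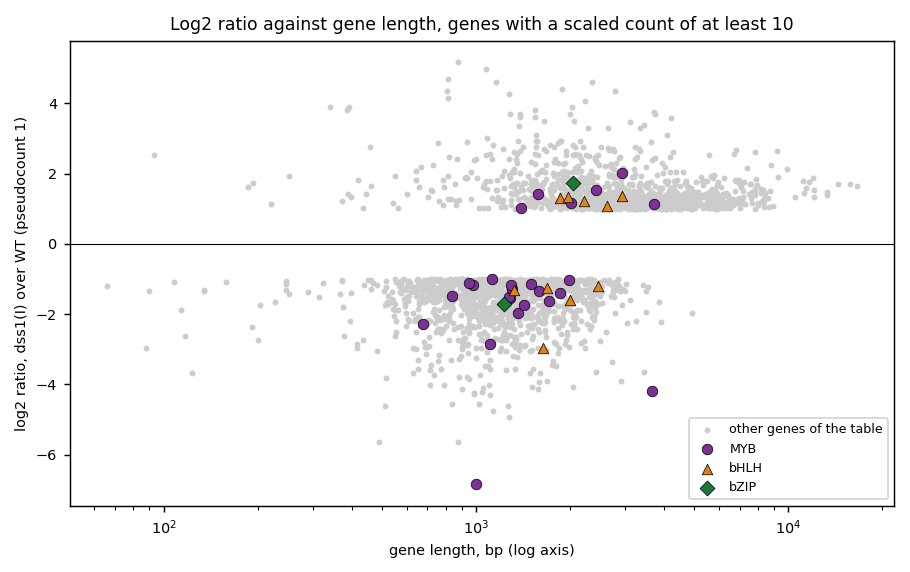
Log2 ratio of *dss1(I)* over WT against gene length in bp on a log axis, for genes that reach a scaled count of 10 in either library. Members are circles for MYB, triangles for bHLH and diamonds for bZIP, other genes of the table are grey, and short genes lie mostly below 0 and long genes mostly above it.

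With each member set beside the other called genes within 20% of its own length, 24% of MYB genes were higher in *dss1(I)*, beside 32.3% of genes of like length. For bHLH genes these shares were 50% and 51.6%. For the bZIP pair they were 50% and 33.3%. Beside genes of like length with another transcription factor label, the shares were 24% against 21.7% for MYB, 50% against 37.7% for bHLH and 50% against 18.6% for bZIP. Some members above the minimum went the other way from most genes of their length. BOA was lower where 95.8% of such genes were higher and BHLH96 was lower where 69.5% were. MYBL2 was higher where 21.0% of such genes were, AT2G38300 where 28.7% were, BHLH137 where 44.4% were and HBI1 where 46.9% were.

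**Figure D3:**
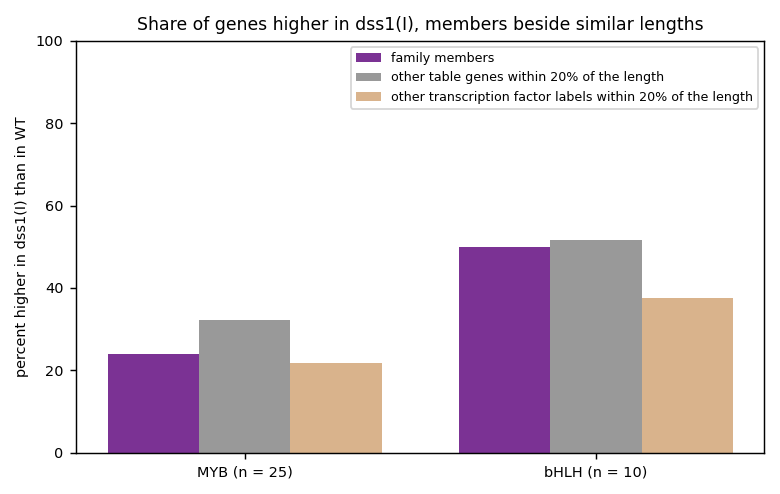
Percent of genes higher in *dss1(I)* than in WT for 25 MYB and 10 bHLH members, beside other genes of the table and other transcription factor genes within 20% of each member's length. The MYB bar stands at 24%, between 32.3% and 21.7%, and the bHLH bar at 50%, beside 51.6% and 37.7%.

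Several members share sequence with an overlapping gene on the opposite strand, and whether the counting used strand is not given in the sources used here. The share of a gene's 50-base words also found in another gene was 50% for BOA, 45.5% for AT1G58220, 44.7% for MYB44, 37.0% for AT5G04760 and 28.2% for SRM1, and 4% or less for every other member. The reads of these 5 genes are uncertain for that reason. In all, 8 of 41 members overlap a gene on the opposite strand.

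Markers of tissue were measured in the same libraries. Of 27 matched root and root hair markers, 10 were in the table and all 10 were higher in *dss1(I)*, beside 48.1% of the table and 43.9% of called genes of like length. They had a summed scaled count of 2429 in *dss1(I)* and 746 in WT. Among the 10, RHS13 and PME24 had 27 and 15 reads in *dss1(I)*, against 0 and 0 in WT. The other 17 matched root and root hair markers were not in the table, and their levels were not analysed here. Of 18 leaf markers, 0 were in the table. In whole seedlings fewer cells of a type and less RNA per cell cannot be told apart, and the part of tissue make-up in the levels of the members was not tested.

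The activators of anthocyanin synthesis MYB90 and MYB75 had the lowest ratios among MYB genes with at least 30 reads in 1 library. MYB90 (PAP2) had 0 *dss1(I)* reads against 106 WT reads. Set against a floor of 3 reads in the library without reads, as for all such folds below, MYB90 was 41.1-fold lower. Such a fold takes the reads of the other library as exact. The log2 interval of MYB90, which does not, reached up to -5.04. MYB75 (PAP1), a close relative of MYB90, had 23 *dss1(I)* reads against 149 WT reads. This is 7.53-fold lower in scaled counts (log2 ratio -2.86, interval -3.61 to -2.27). Both encode R2R3 proteins that switch on the late pigment genes. TT8, the bHLH partner of these MYBs, had scaled counts of 24.1 in *dss1(I)*, against 74.4 in WT (log2 ratio -1.59, interval -2.34 to -0.96). All 3 activators were thus lower in *dss1(I)*, though the intervals of MYB75 and TT8 overlapped slightly. Of called genes of like length, 9.40% were higher for MYB90, 10.6% for MYB75 and 49.5% for TT8.

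The repressors MYBL2 and MYB7 of the same pathway did not move alike. MYBL2, a single-repeat MYB that opposes the activating complex, had scaled counts of 718.7 in *dss1(I)*, against 355.8 in WT (log2 ratio 1.01, interval 0.827 to 1.204). MYB7, an R2R3 repressor of flavonoid genes, had scaled counts of 16.7 in *dss1(I)*, against 50.7 in WT (log2 ratio -1.55, interval -2.47 to -0.79). Per length, MYBL2 stood at 50.4 FPKM in *dss1(I)* and 25.2 FPKM in WT, above MYB75 at 1.88 FPKM in *dss1(I)* and 14.3 FPKM in WT. The list of flavonoid regulators held 19 loci, of which 6 were in the table, 1 higher and 5 lower, beside 48.1% and 51% of the table. Among called genes of like length 19.4% were higher. The gene of these 6 not yet named, CPC, has no family label in the table. CPC was lower, with 3 *dss1(I)* reads against 18 WT reads (log2 ratio -2.43, interval -5.21 to -1.03).

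The upstream sequences of the pigment regulators are shown because the activators and MYBL2 differed in direction. The 200 bases before the gene start are printed 5′ to 3′ on the gene's own strand, from the RefSeq TAIR10.1 genome, in which all 41 members have the coordinates of the TAIR10 table. Capitals mark the G-box CACGTG, the wider E-box CANNTG, the ACGT core and the MYB-binding words ACCAAC and ACCTAC, on either strand, where these may overlap. They come from chr1:24763741-24763940 (plus strand) for MYB90, chr1:21235293-21235492 (minus) for MYB75, chr4:6181681-6181880 (plus) for TT8 and chr1:26796533-26796732 (minus) for MYBL2.
MYB90: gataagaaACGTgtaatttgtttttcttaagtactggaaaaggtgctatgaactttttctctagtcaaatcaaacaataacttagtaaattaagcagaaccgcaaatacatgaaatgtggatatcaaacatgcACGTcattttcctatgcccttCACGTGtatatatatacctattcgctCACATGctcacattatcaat
MYB75: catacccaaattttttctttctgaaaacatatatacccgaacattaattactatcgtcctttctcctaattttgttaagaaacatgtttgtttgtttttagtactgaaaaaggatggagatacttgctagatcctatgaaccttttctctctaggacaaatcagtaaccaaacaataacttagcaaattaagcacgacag
TT8: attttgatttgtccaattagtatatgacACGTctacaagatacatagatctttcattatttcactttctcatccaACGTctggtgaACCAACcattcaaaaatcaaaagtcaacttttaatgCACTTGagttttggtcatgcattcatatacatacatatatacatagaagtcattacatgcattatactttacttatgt
MYBL2: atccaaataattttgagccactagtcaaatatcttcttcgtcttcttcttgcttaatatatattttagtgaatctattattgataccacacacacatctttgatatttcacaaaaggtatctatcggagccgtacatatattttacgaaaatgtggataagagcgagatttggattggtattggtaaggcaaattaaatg

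The MYB90 window held a G-box 46 bases before the gene start and a further E-box, while the MYB75 and MYBL2 windows held none of these words. The TT8 window held 1 E-box without a G-box and 1 ACCAAC word. The longest run of letters shared by the MYB75 and MYB90 windows was caaacaataacttag, 15 bases long. It began 32 bases before the MYB75 start and 130 bases before the MYB90 start.

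The enzymes these factors are known to act on were set beside them. Of 23 listed flavonoid and anthocyanin enzymes, 12 were in the table and all 12 were lower in *dss1(I)*, with a median log2 ratio of -1.39, beside -1.02 over the table. Among called genes of like length 29.9% were higher. Among the 12, CYP75B1 and LDOX were picked by the study from these samples, so the list is not independent evidence of its direction. CHS, which catalyses the entry step, had scaled counts of 4711.3 in *dss1(I)*, against 11855.5 in WT (log2 ratio -1.33, interval -1.38 to -1.28). GSTF12 (TT19), needed to carry anthocyanin to the vacuole, had the lowest ratio of the 12, with scaled counts of 256.9 in *dss1(I)*, against 1257.3 in WT (log2 ratio -2.29, interval -2.49 to -2.10). The others were CHI1, CHI3, CYP75B1, DFRA, LDOX, UGT75C1, A3G2XYLT, UGT78D2, 5MAT and SCPL10, and the ratio nearest 0 was -1.11 for SCPL10.

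**Figure D4:**
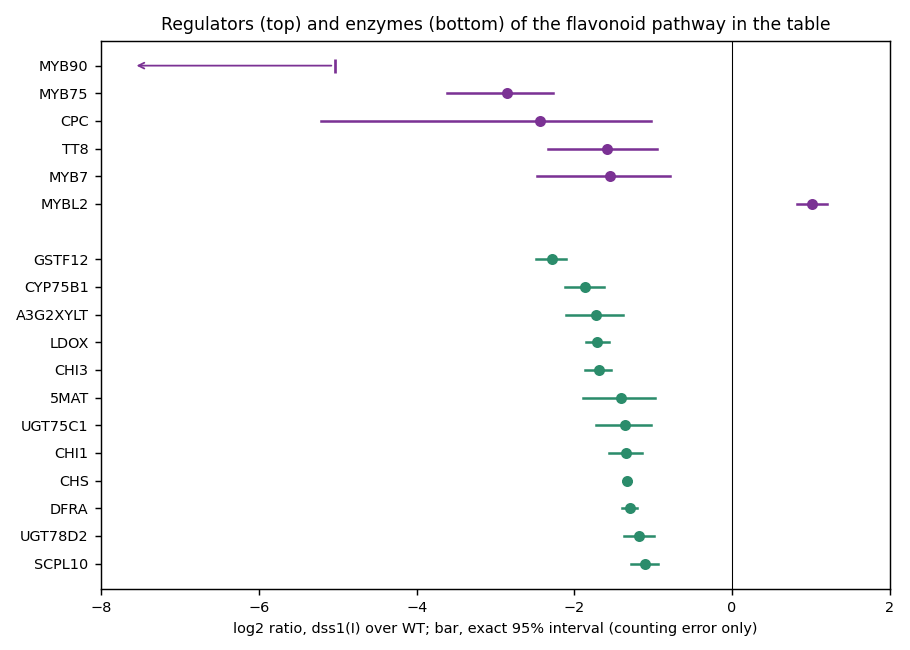
Log2 ratio of *dss1(I)* over WT for the 6 regulators and 12 enzymes of the flavonoid pathway in the table, with exact 95% intervals for counting error only as bars, and an arrow for MYB90, which has no reads in *dss1(I)*. MYBL2, at 1.01, is the 1 gene to the right of 0 in the authors' scaling.

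Of 23 listed R2R3 MYB genes of stress and abscisic acid responses, 8 were in the table, and all 8 were lower in *dss1(I)* in the authors' scaling, beside 51% of the table. Among called genes of like length 27.4% were higher. Under median-ratio scaling MYB44 was at 0.00, MYB112 at -0.12, MYB15 at -0.14 and MYB73 at -0.25. The closely related MYB44, MYB73 and MYB77, which are induced by stress and wounding, were the most abundant of them. MYB44 had scaled counts of 1144.4 in *dss1(I)*, against 2321.5 in WT (log2 ratio -1.02, interval -1.12 to -0.92). MYB73 had scaled counts of 305.1 in *dss1(I)*, against 740.8 in WT (log2 ratio -1.28, interval -1.47 to -1.09). MYB77 had scaled counts of 117.8 in *dss1(I)*, against 367.7 in WT (log2 ratio -1.63, interval -1.95 to -1.34). The interval of MYB44 did not overlap that of MYB77, so that within these 2 libraries MYB77 differed by more than MYB44 beyond counting error. Counting error does not cover the sequence that MYB44 shares with other genes (44.7% of its 50-base words).

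The remaining stress MYB genes were at lower levels. MYB15, a regulator of cold responses and defence lignin, had 47 *dss1(I)* reads against 91 WT reads. MYB112, which promotes anthocyanin formation under salt and strong light, had 22 *dss1(I)* reads against 42 WT reads. MYB108 (BOS1), known from responses to Botrytis and wounding, had 10 *dss1(I)* reads against 24 WT reads. MYB47 had 14 and MYB95 had 8 reads in *dss1(I)*, against 36 and 25 in WT. The log2 ratios of these 5 genes lay between -1.73 and -1.11.

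Genes of the clock were few. RVE2 (CIR1), a MYB-related factor of the LHY family, had scaled counts of 39.9 in *dss1(I)*, against 90.6 in WT (log2 ratio -1.16, interval -1.75 to -0.64). ASG4, also known as RVE3, had 10 *dss1(I)* reads against 23 WT reads (log2 ratio -1.33). BOA, a relative of LUX, had 0 *dss1(I)* reads against 16 WT reads. BOA was 6.20-fold lower against the floor of 3 reads, with a log2 interval that reached up to -2.16. RVE2, ASG4 and BOA were thus all lower in *dss1(I)*, beside 51% of the table, BOA at a depth where few reads decide the value. LHY itself carries no family label in the table and was higher, with scaled counts of 862.5 in *dss1(I)*, against 356.9 in WT (log2 ratio 1.27). LHY, RVE2 and BOA were 3 of 9 matched loci of the clock list, 1 higher and 2 lower, beside 48.1% and 51% of the table. Among called genes of like length 66.0% were higher. ASG4 was listed as RVE3, a name that matched no locus.

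Regulators of the epidermis and of cell fate had low counts. ETC2, a small single-repeat MYB that represses trichome formation, had 2 *dss1(I)* reads against 12 WT reads (log2 ratio -2.29, interval -6.00 to -0.64). Its relatives CPC and ETC3, which lack the label, were lower as well, with 3 and 4 reads in *dss1(I)*, against 18 and 42 in WT. Among called genes with the length of ETC2, CPC and ETC3, 7.78% were higher. MYB82, which acts in trichome initiation, had 6 *dss1(I)* reads against 16 WT reads (log2 ratio -1.48). MYB56 (BRAVO), which restrains division in the root quiescent centre, had 4 *dss1(I)* reads against 16 WT reads (log2 ratio -1.96, interval -4.26 to -0.59). The secondary wall factors MYB42 and MYB85 went opposite ways. MYB42 had 0 *dss1(I)* reads against 8 WT reads and was 3.10-fold lower against the floor, with a log2 interval up to -0.99. MYB85 had 10 *dss1(I)* reads against 0 WT reads and was 2.86-fold higher against the floor, with a log2 interval down to 0.95.

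The MYB genes higher in *dss1(I)* had a median length of 1913.5 bp, and the 20 lower MYB genes one of 1292 bp. MYBL2 and MYB85, described above, were 2 of these 8, and 0 of them were on the stress list. AT1G58220 had the highest ratio of those above the minimum, with scaled counts of 72.3 in *dss1(I)*, against 17.3 in WT (log2 ratio 2.01, interval 1.28 to 2.94). TRFL8, named for its likeness to telomere-repeat binding factors, had scaled counts of 83.5 in *dss1(I)*, against 28.0 in WT (log2 ratio 1.54, interval 0.93 to 2.26). Both were scarce beside the next gene. SRM1, a MYB-like factor of salt responses, had scaled counts of 299.5 in *dss1(I)*, against 132.6 in WT (log2 ratio 1.17, interval 0.87 to 1.49). MYB3R4, a 3-repeat MYB that activates mitotic genes, had scaled counts of 93.7 in *dss1(I)*, against 42.1 in WT (log2 ratio 1.14, interval 0.61 to 1.73), and 96.6% of called genes of its length were higher. AT2G38300 had 42 *dss1(I)* reads against 13 WT reads (log2 ratio 1.41). AT5G06800 had 6 *dss1(I)* reads against 0 WT reads, 1.72-fold higher against the floor, with a log2 interval down to 0.02. Of the lower MYB genes not yet named, AT5G01200 had 22 *dss1(I)* reads against 44 WT reads. AT5G04760 had 99 *dss1(I)* reads against 172 WT reads, a log2 ratio of -1.01 that was 0.01 under median-ratio scaling.

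The 5 bHLH genes higher in *dss1(I)* had a median of 22.5 FPKM in *dss1(I)* and 9.09 FPKM in WT. The 6 lower ones had a median of 0.922 FPKM in *dss1(I)* and 2.31 FPKM in WT, so that the higher group was the more abundant by its medians. BIM1, a brassinosteroid-response partner of BES1, had scaled counts of 1117.5 in *dss1(I)*, against 430.2 in WT (log2 ratio 1.38, interval 1.21 to 1.54). HBI1, which promotes cell elongation, had scaled counts of 728.0 in *dss1(I)*, against 291.1 in WT (log2 ratio 1.32, interval 1.12 to 1.53). BHLH137 had scaled counts of 428.5 in *dss1(I)*, against 171.5 in WT (log2 ratio 1.32, interval 1.06 to 1.59). The intervals of these 3 genes overlapped, so that their order is not set beyond counting error. BHLH62 (CIB3), a relative of the cryptochrome-interacting CIB proteins, had 164 *dss1(I)* reads against 60 WT reads (log2 ratio 1.22), and BHLH70 had 203 *dss1(I)* reads against 82 WT reads (log2 ratio 1.08). These 5 genes were 1861 to 2934 bp long. Of the 35 matched loci of the light and growth list, 6 were in the table and 5 were higher, beside 48.1% of the table and 45.2% of called genes of like length. They were BIM1, HBI1, BHLH62 and the unlabelled BEE1 and PRE1. PRE3 had 0 *dss1(I)* reads against 6 WT reads.

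Among the lower bHLH genes, TT8 was described above with the pigment regulators. BHLH122, a positive factor of drought and salt tolerance, was the most abundant, with scaled counts of 154.9 in *dss1(I)*, against 368.8 in WT (log2 ratio -1.25, interval -1.53 to -0.98). BHLH96 had 26 *dss1(I)* reads against 53 WT reads (log2 ratio -1.21), and BHLH107 had 13 *dss1(I)* reads against 29 WT reads (log2 ratio -1.31). BHLH14, of the group that damps jasmonate responses, had 1 read in *dss1(I)*, against 13 in WT (log2 ratio -2.97, interval -9.33 to -1.18). BHLH28 (MYC5), a jasmonate-response factor, had 0 *dss1(I)* reads against 7 WT reads. It was 2.72-fold lower against the floor of 3 reads, with a log2 interval up to -0.74. BHLH28 was the 1 gene of 8 matched loci of the jasmonate list that was in the table.

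The bZIP genes stood apart from each other in direction, by about equal ratios in the authors' scaling. BZIP60, an endoplasmic reticulum stress factor made active by splicing of its mRNA through IRE1, had scaled counts of 551.8 in *dss1(I)*, against 1796.4 in WT (log2 ratio -1.70, interval -1.84 to -1.57). It was the member with the highest FPKM in WT, at 43.8 FPKM in *dss1(I)* and 144 FPKM in WT. The counts are per gene and do not separate its spliced from its unspliced mRNA. BZIP61, of a group known from pollen development, had scaled counts of 520.3 in *dss1(I)*, against 155.3 in WT (log2 ratio 1.74, interval 1.48 to 2.02). Per length, BZIP61 stood at 24.9 FPKM in *dss1(I)* and 7.50 FPKM in WT, below BZIP60 in both libraries.

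BZIP60 was the 1 gene of 4 listed endoplasmic reticulum stress bZIPs in the table. Of 30 loci of endoplasmic reticulum chaperones and stress genes, a list chosen after values were seen, NAC062 and NAC089 were in the table. Both were lower, beside 51% of the table, and among called genes of like length 40.4% were higher. NAC062 had scaled counts of 258.7 in *dss1(I)*, against 626.5 in WT, and NAC089 had 107.6 in *dss1(I)* and 222.1 in WT. None of the matched loci of the lists of glucosinolate regulators (9), stomatal factors (7), iron bHLHs (11), abscisic acid bZIPs (14), bZIPs of groups S1 and C (9), TGA factors (10), HY5 and HYH (2), zinc and salt bZIPs (3) and VIP1-like bZIPs (8) was in the table. A gene that is not in this table was not called by the authors, and its level was not analysed here. Of 23 matched glucosinolate enzymes, CYP79F1 was higher and FMOGS-OX4 lower (log2 ratios 1.00 and -1.32). Of 18 matched iron targets, 4 were in the table, 3 higher and 1 lower, beside 48.1% and 51% of the table. Of the higher ones, IRT2 had 6 *dss1(I)* reads against 0 WT reads. Among called genes with the length of the iron targets above the minimum, 64.0% were higher. Of 16 matched loci of the cell cycle and chromatin list, MYB3R4 and CHR17 were in the table, and both were higher. Among called genes of like length 97.1% were higher, so both went the way of most such genes, and the part of length was not tested.

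Of the words searched in the promoters of all members, the G-box had the largest share relative to all promoters. In the 250 bases before the gene start it was found in 10 of 41 members (24.4%), beside 6.49% of all 27443 promoters of protein-coding genes in the annotation and 7.995% of 2639 other genes of the table. Among genes of the table with another transcription factor label it was found in 13 of 104 (12.5%). Of the members lower in *dss1(I)*, 8 of 27 held it, and of those higher, 2 of 14. The 30 bases around each are shown with the G-box in capitals, and the first 8 lines are of genes lower in *dss1(I)*.
MYB90, chr1:24763883-24763912 (plus): tcctatgcccttCACGTGtatatatatacc
BOA, chr5:24003789-24003818 (plus): tggttgattacaCACGTGtcacttagacag
ASG4, chr1:190312-190341 (plus): acgatcgtattcCACGTGgcaatttatgtg
AT5G01200, chr5:76841-76870 (plus): cctattgatcatCACGTGaaatatagaaaa
RVE2, chr5:14753234-14753263 (minus): gaagaaatcctcCACGTGtcattagcatct
BHLH14, chr4:363806-363835 (minus): cagttcagttttCACGTGactaacttacta
BHLH122, chr1:18945878-18945907 (minus): taacgtggtcccCACGTGgcctacacgtgt
BZIP60, chr1:16137599-16137628 (minus): gtccataatcaaCACGTGtcatgctgactc
MYB3R4, chr5:3679681-3679710 (plus): aaagataggagaCACGTGaccgaaaatatt
BZIP61, chr3:21523540-21523569 (minus): gttcactaagagCACGTGctgcctgattct

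BHLH122 held another G-box 72 bases before its start, which is visible in lower case at the end of its line. A G-box is also an E-box and contains the ACGT core, so these counts overlap. The ACGT core was found in 27 of 41 members (65.9%) beside 44.1% of all promoters, and the E-box in 32 (78.0%) beside 55.3%. The evening element AAAATATCT, a word of clock-controlled promoters, was found in BOA, MYB73 and MYBL2, which is 7.32% of members beside 2.36% of all promoters. ACCAAC was found in 17.1% of members beside 11.5% of all promoters, and ACCTAC in 2.44% beside 4.60%. These are matches of letters in 6 searches and were not read as sites.

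Per length and per library, the highest levels in *dss1(I)* were those of MYB44 at 56.3 FPKM, MYBL2 at 50.4 FPKM and BZIP60 at 43.8 FPKM. In WT they were those of BZIP60 at 144 FPKM, MYB44 at 115 FPKM and MYB73 at 55.8 FPKM. MYBL2 thus stood above BZIP60 in *dss1(I)* and below it in WT, where it had 25.2 FPKM. At the other end, 13 of 41 members had under 30 reads in both libraries, 11 of them among the 27 lower members. Every member's interval lay on one side of 0. The members were called from these same libraries, so this follows from their choice and is no separate support. For 12 of 41 the interval lay wholly beyond a log2 ratio of 1 in size, and for the others it reached into differences of less than 2-fold.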

How the data were processed

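RNA was sequenced from *dss1(I)* and WT seedlings, 1 library each. Per the study's methods and the labels, the authors cleaned reads with fastp, mapped them to TAIR10 with HISAT2 and assigned them to genes with featureCounts. The deposited table holds, for the genes the authors called, raw counts, a scaled signal (counts brought to a common library size in edgeR) and FPKM. Its columns of the authors' fold changes and p-values were not used. Of the per-sample columns, 0 were left unused.

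Library totals were recovered from counts, FPKM and gene length, and the genes of the table held 9.49% of *dss1(I)* and 10.7% of WT reads. The log2 ratio used scaled counts with a pseudocount of 1, and family counts used genes reaching a scaled count of 10 in either library. Intervals are exact Clopper-Pearson 95% intervals. A gene with 0 reads was set against a floor of 3 reads. The genes set to be named were, per family, the 5 highest and 5 lowest ratios above the minimum, the 3 highest mean FPKM values and every member of the 23 gene lists. The remaining members were then named as well, so that all 41 are. The list of endoplasmic reticulum chaperones and stress genes was added to the 23. Members and lists were chosen with earlier results of these data known. List entries were matched by locus or name, and entries matched only through the table's own names are in it by construction. The ratios were tested on simulated data. Alternatives were other pseudocounts, minimums, scalings, labels, thresholds and length windows. The tools were scipy 1.17.1, pandas 2.3.3, numpy 2.4.6 and matplotlib 3.10.9 under Python 3.11.15.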

Additional observations from a re-analysis of the deposited data

How the results depend on the processing

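No paired analysis was possible because there is 1 library per genotype, and for the same reason no replicate could be left out. The MYB family kept a median log2 ratio below 0 under every alternative run. Under median-ratio scaling over the table, which holds called genes only and moves the members' log2 ratios up by a median of 1.00, the minimum was applied to the rescaled counts, which drops ETC2 and BHLH14 and brings in MYB85. Then 4 MYB, 0 bHLH and 0 bZIP genes (4 in all) were at -1 or below, with medians of -0.19 for MYB, 2.097 for bHLH, which reversed, 1.04 for bZIP and -0.17 for the 3 families. With the original 37 genes kept, a choice made after seeing the data, 5 MYB, 1 bHLH and 0 bZIP genes (6 in all) were at -1 or below. The medians were -0.25, 0.94, which reversed, 1.04 and -0.21. MYB44 and AT5G04760 reversed to 0.0043 and 0.0104. With a minimum scaled count of 50, 9 MYB and 3 bHLH genes were lower (13 of the 3 families), and the bHLH median reversed to 1.15. The bHLH median was -1.21 with no minimum and -1.06 when genes with family words in their names were added, a choice made after seeing the data. At a log2 ratio of 2 in size, 1 MYB, 0 bHLH and 0 bZIP genes were higher (1 in all) and 4 MYB, 1 bHLH and 0 bZIP genes lower (5 in all). Shares higher among other transcription factor genes of like length were 21.7% for MYB, 37.7% for bHLH and 18.6% for bZIP, and the bHLH share within 40% of the length was 45.7%. Over the 41 members and AtDSS1(I), a pseudocount of 0.1 and library totals moved 0 genes beyond their counting interval, and a pseudocount of 5 moved 2, both with 0 reads in *dss1(I)*. Median ratio scaling moved 26 genes without turning them. Depth limits the 13 members with under 30 reads in both libraries.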

Other observations

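In the table, 5 genes have MYB or bHLH words in their names or descriptions but no family label, and they are not among the 41 members. ETC3 had scaled counts of 3.7 in *dss1(I)* and 45.3 in WT. BHLH167 had scaled counts of 210.5 in *dss1(I)* and 532.7 in WT, and BHLH23 had 71.4 in *dss1(I)* and 149.9 in WT. BHLH146 was higher, with scaled counts of 26.9 in *dss1(I)* and 4.3 in WT, and BHLH103 had 9 *dss1(I)* reads against 0 WT reads. The members lay on all 5 nuclear chromosomes, with 2 of 11 higher in *dss1(I)* on chromosome 1, 4 of 6 on chromosome 2, 2 of 6 on chromosome 3, 1 of 5 on chromosome 4 and 5 of 13 on chromosome 5. The proteins of the MYB members higher in *dss1(I)* had a median of 360 residues, and those of the lower MYB members 278 residues. The bHLH members higher in *dss1(I)* had a median of 371 residues, and the lower ones 401 residues.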
